A study of Mus musculus with 4 samples.

Results

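Interferons are cytokines that cells release on sensing viral nucleic acid. Type I interferons act through a receptor whose kinases lead to binding of a complex that holds STAT2 and IRF9 at interferon-stimulated response elements (ISRE). Interferon gamma, the type II interferon, acts through gamma-activated sites (GAS), whose core letters are also those of the STAT5 motif. Much of the response is also expressed at a low level in unchallenged tissue, through tonic signalling. A list of 49 genes of this response was followed in mouse mammary tissue with and without STAT5, the transcription factor that prolactin activates in the mammary epithelium. It holds 36 genes induced mainly by type I interferons, 11 genes of the guanylate-binding protein (GBP), immunity-related GTPase (IRG) and antigen processing groups, which interferon gamma also induces strongly, and 2 genes induced by both interferon types.

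The members were taken by exact gene symbol in the annotation of the Affymetrix array, and where several probe sets named a gene, the one brightest on average over the 4 arrays on the log2 scale was read. Of the 49 genes, 46 had a probe set with a single symbol, out of 18193 genes on the array. Isg15, Oas1g and Ifi44 had none. After a limit on dim probe sets, 41 members were tested among 11360 genes. The other 5 members, Oas3, Mx1, Mx2, Ifi203 and Cxcl10, were too dim to be tested.

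Total RNA came from mammary tissue of 2 mice labelled STAT5 WT and 2 labelled STAT5 KO, all collected at 6 days. The labels do not name the event from which the days are counted. They give no strain and no age, and do not state in which cells, by which allele or over which exons STAT5 was removed. The title of the series concerns STAT5A and luminal progenitors, the epithelial precursors of the milk-secreting alveoli, and the tissue was measured whole. A signal here is a MAS5 intensity on a linear scale, and each array had a trimmed mean signal of 500. Stat5a stood at 2307 and 2061 on WT replicates 1 and 2 and at 1836 and 861 on KO replicates 1 and 2, and Stat5b at 1522 and 1506 against 1069 and 712. Both KO arrays were below both WT arrays for each gene, but neither difference passed the threshold in limma (adjusted p of 0.246 and 0.102). KO replicate 1 lay nearer the WT arrays than KO replicate 2 did. Without it adjusted p was 0.0115 and 0.0227, a fit in which the KO group is 1 array, assumed to vary like the others. The same holds below wherever 1 array is left out. A second, dimmer probe set of each gene was also lower on both KO arrays. It differed by -1.22 on the log2 scale for Stat5a and by -0.97 for Stat5b (limma, adjusted p of 0.106 and 0.121). Where these probe sets lie relative to a deleted part is unknown, so what they read of a remaining transcript was not tested.

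Interferon response genes were mostly somewhat higher in the KO tissue, and the larger differences lay among the antiviral genes of the type I response. Trim34a, a member of the tripartite motif (TRIM) family, and Oasl2, a relative of the 2'-5' oligoadenylate synthetases, rose past the threshold (limma, adjusted p under 0.05 over all tested probe sets). This was 2 of 41 members, beside 1.21% of all tested genes called higher. No member was called lower, beside 1.36% of all tested genes. At an unadjusted p under 0.05, 14 of the 41 members were higher and 0 were lower, against 1186 and 1232 of the 11360 genes. Of the higher members, Trim34a and Ifi204 entered the test only through their KO arrays. Both of their WT signals were below the limit on dim probe sets. The members called depended on which arrays entered, as given for single genes below. Without KO replicate 1 or KO replicate 2, Trim34a was too dim on average to be tested, so its call was not put to the test there.

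Direction, read from 1 probe set per gene, was more even than size. Of 19 members with several probe sets, 7 had probe sets that differed in opposite directions, untested ones included. Both KO arrays lay above both WT arrays for 25 of the 41 members (61.0%), Trim34a and Ifi204 among them, while 26.2% of all tested genes did so. The reverse order held for 1 member, Eif2ak2, against 27.5% of all tested genes, and 15 members had overlapping arrays. The log2 difference, KO minus WT on the log2(signal + 16) scale, was positive for 37 of 41 members and for 48.5% of all tested genes. Its median was 0.29 over the members, a 1.22-fold ratio, and -0.01 over all tested genes. Among the members, 4 differed by 1 or more, 11 by 0.5 to 1, 10 by 0.25 to 0.5, 15 by less than 0.25 either way and 1 by -0.25 or less. Of the 41 differences, 18 were larger than the gap between the arrays of either genotype. The share of all tested genes for which this holds was not computed.

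**Figure D1:**
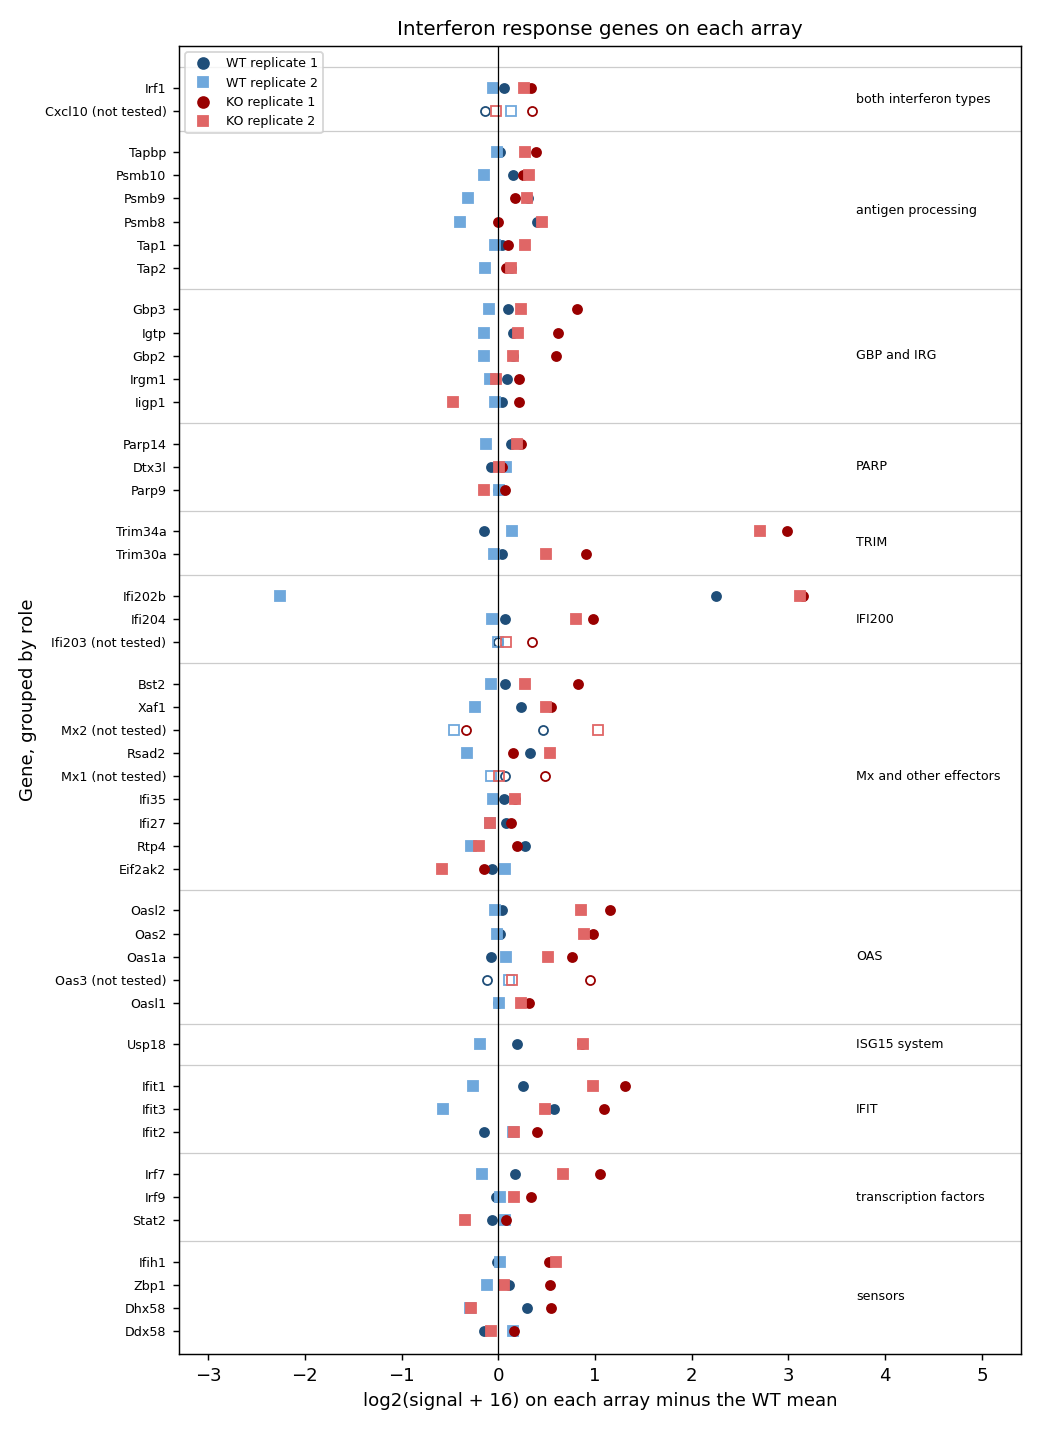
Log2(signal + 16) of each member on each of the 4 arrays, minus the mean of the 2 WT arrays, grouped by role; circles are replicate 1 and squares replicate 2, blue for WT and red for KO, and open symbols mark members too dim to be tested. Most red symbols lie to the right of 0, Trim34a lies farthest right among members whose arrays of a genotype lie close together, and the WT arrays of Ifi202b lie 4.51 apart.

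The promoters of 33 members were in the RefSeq table used (assembly GRCm38.p6), as windows of 300 bases from 250 before to 50 after the transcription start. Both strands were searched for GAAANNGAAA, the ISRE core, and for TTCNNNGAA, the GAS core, which reads the same on both strands. The ISRE core was found in 18 of 33 members (54.5%) and in 3.99% of the 27025 genes in the table. It was in 13 of 22 type I targets (59.1%) and in 4 of 9 GBP, IRG and antigen processing genes (44.4%). Those 4 were the GBP and IRG genes Gbp2, Gbp3, Igtp and Irgm1, and no antigen processing gene in the table had it. The GAS core was in 9 of 33 members (27.3%) and in 9.55% of all genes. It was in 6 of 22 type I targets (27.3%) and in 2 of 9 genes of the other class (22.2%). In 1 member, Bst2, both motifs overlapped. Psmb9 and Tap1 share 275 bases of their windows, since both are read from 1 promoter in opposite directions.

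Sequences are shown for both members that rose and for 3 others that represent the classes: an IFIT gene with 2 ISRE cores, an OAS gene with overlapping ISRE cores, and an IRG gene with both motifs. Each is written 5′ to 3′ on the strand of its gene, with ISRE and GAS matches in capitals. Trim34a lies at chr7:104244207-104244506 on the plus strand, with its ISRE core from position 11 after the start, inside the transcribed part. Oasl2 lies at chr5:114896684-114896983 on the plus strand and has neither motif in this window. Ifit1 lies at chr19:34640639-34640938 on the plus strand, with ISRE cores from positions -104 and -85. Oas1a lies at chr5:120907476-120907775 on the minus strand, with ISRE cores from -20 and -14, which overlap and are printed as 1 run, and a GAS core from -98. Igtp lies at chr11:58199306-58199605 on the plus strand, with a GAS core from -45 and an ISRE core from -34. A match describes the letters only, and binding was not measured.
Trim34a: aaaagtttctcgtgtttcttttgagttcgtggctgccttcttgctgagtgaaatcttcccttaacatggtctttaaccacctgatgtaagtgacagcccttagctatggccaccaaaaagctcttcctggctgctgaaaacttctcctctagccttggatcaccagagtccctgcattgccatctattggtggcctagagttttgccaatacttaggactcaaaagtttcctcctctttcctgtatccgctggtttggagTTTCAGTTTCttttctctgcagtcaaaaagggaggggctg
Oasl2: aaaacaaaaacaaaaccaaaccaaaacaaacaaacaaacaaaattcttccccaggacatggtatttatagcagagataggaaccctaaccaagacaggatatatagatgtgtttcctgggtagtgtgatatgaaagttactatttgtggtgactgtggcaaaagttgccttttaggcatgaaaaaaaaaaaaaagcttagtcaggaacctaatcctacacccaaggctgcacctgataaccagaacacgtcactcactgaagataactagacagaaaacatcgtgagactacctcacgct
Ifit1: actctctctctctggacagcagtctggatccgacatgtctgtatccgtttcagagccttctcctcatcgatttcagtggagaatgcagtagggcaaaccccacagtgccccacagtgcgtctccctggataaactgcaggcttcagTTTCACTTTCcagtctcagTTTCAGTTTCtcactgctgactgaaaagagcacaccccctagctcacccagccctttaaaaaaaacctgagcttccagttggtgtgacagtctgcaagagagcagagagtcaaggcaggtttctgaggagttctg
Oas1a: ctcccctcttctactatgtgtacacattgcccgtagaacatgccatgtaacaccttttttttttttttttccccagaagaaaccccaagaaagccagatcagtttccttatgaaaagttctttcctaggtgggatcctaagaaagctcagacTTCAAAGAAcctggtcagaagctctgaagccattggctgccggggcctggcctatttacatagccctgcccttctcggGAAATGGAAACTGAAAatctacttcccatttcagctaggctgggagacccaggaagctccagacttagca
Igtp: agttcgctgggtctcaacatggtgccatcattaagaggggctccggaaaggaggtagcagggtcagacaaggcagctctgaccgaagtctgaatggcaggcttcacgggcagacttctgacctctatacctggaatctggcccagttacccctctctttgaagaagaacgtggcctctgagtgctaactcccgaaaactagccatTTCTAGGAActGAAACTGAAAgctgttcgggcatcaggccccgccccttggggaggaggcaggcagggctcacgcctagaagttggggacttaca

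Upstream of the members, the signalling genes had no common direction. Of 33 ligands, receptors and signalling genes listed, 28 had a probe set and 21 were tested. Irf2 and Ifngr1 rose, 0 fell, 12 genes were positive and 9 negative, and the median log2 difference was 0.01. At an unadjusted p under 0.05, 5 were higher and 1 was lower, against 1186 and 1232 of the 11360 tested genes. Both KO arrays were above both WT arrays for 7 of the 21 genes and below for 5, beside 26.2% and 27.5% of all tested genes.

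Irf2 encodes an interferon regulatory factor known mainly as an antagonist of IRF1. Its signals of 663 and 586 on the WT arrays were well apart from 1239 and 1184 on the KO arrays (log2 difference 0.94, SE 0.15, adjusted p = 0.0369). Ifngr1, the ligand-binding chain of the interferon gamma receptor, read 1691 and 1763 against 2749.5 and 3293 (log2 difference 0.80, SE 0.14, adjusted p = 0.0484). Both kept their direction without any one array, but Irf2 passed the threshold only without KO replicate 2 and Ifngr1 only without KO replicate 1. The adjusted p without 1 array otherwise ran from 0.0534 to 0.189 for Irf2 and from 0.0667 to 0.196 for Ifngr1. Irf2 was called in 7 and Ifngr1 in 4 of 13 alternative settings. Both calls were lost with no filter (adjusted p of 0.103 and 0.121), with no trend in the variance (0.0548 and 0.0791) and with arrays centred on epithelial markers (0.0744 and 0.157). That of Ifngr1 was also lost with quantile normalization (0.057), averaging over all probe sets of a gene (0.0551) and a filter at the 75th percentile (0.0568). The partner chain Ifngr2 lay lower on both KO arrays, at 877 and 1016 against 1249.9 and 1321 (log2 difference -0.44, adjusted p = 0.171). Of the type I receptor chains, Ifnar1 differed by -0.06 and Ifnar2 by 0.33 on the log2 scale, with adjusted p of 0.881 and 0.330. The ligands were too dim to be tested. Ifnb1, the early type I interferon of most cells, read 21.8 and 36.2 in WT against 33.5 and 60.4 in KO, which overlap.

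The sensors detect viral nucleic acid inside the cell. Ifih1 encodes MDA5, which binds long double-stranded RNA. It read 588 and 603 in WT against 863 and 909.6 in KO, a 1.49-fold ratio with both KO arrays higher (log2 difference 0.56, SE 0.14, adjusted p = 0.0963). Its close relative Ddx58, which encodes RIG-I, overlapped between genotypes, at 922 and 1136 against 1149 and 973. Zbp1, a sensor of Z-form nucleic acid, also overlapped, at 134 and 112 against 184 and 128. The third RIG-I-like receptor gene, Dhx58 (LGP2), gave 155 and 97.8 against 187 and 98.5, so the first array of each genotype was the higher one. Dhx58 is of interest because it lies close to the targeted genes, with 6 protein-coding genes between it and Stat5b and 7 between it and Stat5a in the GRCm38.p6 order. Its log2 difference was 0.13 (SE 0.35, adjusted p = 0.877). Of the 20 nearest named genes around Stat5a and Stat5b, 15 were tested, 8 were positive and 7 negative, and limma called 0 of them at the threshold with 1 higher and 2 lower at an unadjusted p under 0.05.

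Of the transcription factors, Irf7 differed most. IRF7 is the interferon-induced factor that drives expression of the interferon alpha genes and amplifies the response. Its signal was 714 and 559 in WT against 1327 and 1013 in KO, with means of 636 ± 109 and 1170.0 ± 222 (SD, n = 2 each). The groups did not overlap, and the log2 difference of 0.86 (SE 0.20) had an adjusted p of 0.0765. Without KO replicate 2 it was 1.05 with an adjusted p of 0.0319. Irf9, which gives that type I complex its main DNA contact, read 575 and 593 against 744 and 655 and was higher on both KO arrays by 0.25 on the log2 scale (adjusted p = 0.42). Stat2, the partner that IRF9 binds, overlapped, at 404 and 444 against 449 and 330.3. Irf1, which both interferon types induce, read 1493 and 1375 against 1820.0 and 1724, a log2 difference of 0.30 with both KO arrays higher (adjusted p = 0.270).

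The IFIT proteins recognise foreign RNA and restrain its translation. Ifit1 had signals of 196 and 131 in WT against 423 and 333 in KO, a 2.31-fold ratio of the means of 164 ± 45.4 and 378 ± 63.4 (SD, n = 2 each). The KO arrays were both above the WT arrays, and the log2 difference of 1.15 (SE 0.24) missed the threshold, with an adjusted p of 0.064. It was 1.31 with an adjusted p of 0.0455 without KO replicate 2. Ifit3 was as variable within a genotype as between them, at 607 and 264 against 877 and 568. Its WT arrays lay 1.15 apart on the log2 scale, more than the genotype difference of 0.79. Ifit2 read 228 and 285 against 342 and 288, so its lower KO array was barely above its higher WT array. Usp18, the protease that removes ISG15 from proteins and restrains the type I receptor, read 264 and 198 against 432 and 433. Its KO arrays were nearly equal and 1.87 times the WT mean (log2 difference 0.87, SE 0.20, adjusted p = 0.0724).

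The OAS genes were alike in direction. OAS enzymes make 2'-5' oligoadenylates from ATP on binding double-stranded RNA, which activate RNase L, while the OASL proteins are related in sequence. In all 4 tested OAS genes both KO arrays were above both WT arrays, with a median log2 difference of 0.79. Oasl2 rose, from 282 and 269 in WT to 634 and 512 in KO. Means of 275 ± 9.66 and 573 ± 86.6 (SD, n = 2 each) gave a 2.08-fold ratio and a log2 difference of 1.01 (SE 0.18, adjusted p = 0.0481), just inside the threshold. Oas2 lay just outside it, at 200.1 and 195 against 405 and 379.7, a 1.99-fold ratio and a log2 difference of 0.94 (SE 0.17, adjusted p = 0.0507). The call of Oasl2 was lost without WT replicate 1, WT replicate 2 or KO replicate 1, where the adjusted p was 0.129, 0.219 and 0.0908, and it was lost in 3 other settings of the 12 in which it was tested. Its log2 difference stayed between 0.86 and 1.59. Oas1a read 423 and 475 against 769 and 647 (log2 difference 0.64, SE 0.17, adjusted p = 0.103). Oasl1, known as a repressor of Irf7 translation, was close to the dim limit, at 129.7 and 130.3 against 166 and 156 (0.28, adjusted p = 0.507). Oas3 was too dim to be tested, and its signals were 12.3 and 17.2 against 43.0 and 17.7.

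The other antiviral effectors were mixed. Bst2, which encodes tetherin and holds budding virus at the cell surface, read 481 and 433 in WT against 823 and 558 in KO, a 1.51-fold ratio (log2 difference 0.55, SE 0.21, adjusted p = 0.221). Xaf1, an inhibitor of the apoptosis inhibitor XIAP, read 1089 and 781 against 1353 and 1303. Its brighter probe set was higher on both KO arrays (0.52, adjusted p = 0.193), but a second Xaf1 probe set was lower on both, at 256 and 185 against 77.8 and 142 (-0.94, adjusted p = 0.163). Eif2ak2 encodes PKR, the kinase that stops translation on double-stranded RNA. It was the only tested member with both KO arrays below both WT arrays, at 364 and 264 against 385 and 424 (-0.36, SE 0.20, adjusted p = 0.38). Rsad2, which encodes viperin, overlapped at 679 and 426 against 598 and 789. Ifi27 and Ifi35, the brightest of these effectors, differed little. Ifi27 read 9416 and 8408 against 9742 and 8389 and overlapped. Ifi35 read 3032 and 2796 against 3280.3 and 3292, with both KO arrays higher (0.17, adjusted p = 0.493). Rtp4, whose product takes part in receptor transport, had a log2 difference of 0.00. Mx1 and Mx2, which encode dynamin-like GTPases, were too dim to be tested. Mx1 gave 87.7 and 78.1 against 122 and 83.6, and Mx2 gave 36.1 and 11.5 against 14.1 and 61.3, with overlapping arrays for each gene.

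The IFI200 proteins include nuclear DNA sensors. Ifi204 read 119 and 108 in WT against 239 and 209.7 in KO, a 1.98-fold ratio (log2 difference 0.89, SE 0.21, adjusted p = 0.0783). Both WT signals lay below the dim limit of 126, so it entered the test through the KO arrays. Ifi202b was the least even member, with 484 and 6.01 in WT against 919 and 896 in KO. It had the largest log2 difference of all members (3.14, SE 1.24), but the WT arrays lay 4.51 apart and the adjusted p was 0.229. The WT arrays decided this value. Without WT replicate 2, the array near 0, the difference was 0.89 with an adjusted p of 0.189, and without WT replicate 1 it was 5.39 with an adjusted p of 0.00235, each against a single WT array. Ifi203 was too dim to be tested, at 116 and 115 against 152 and 123.

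**Figure D2:**
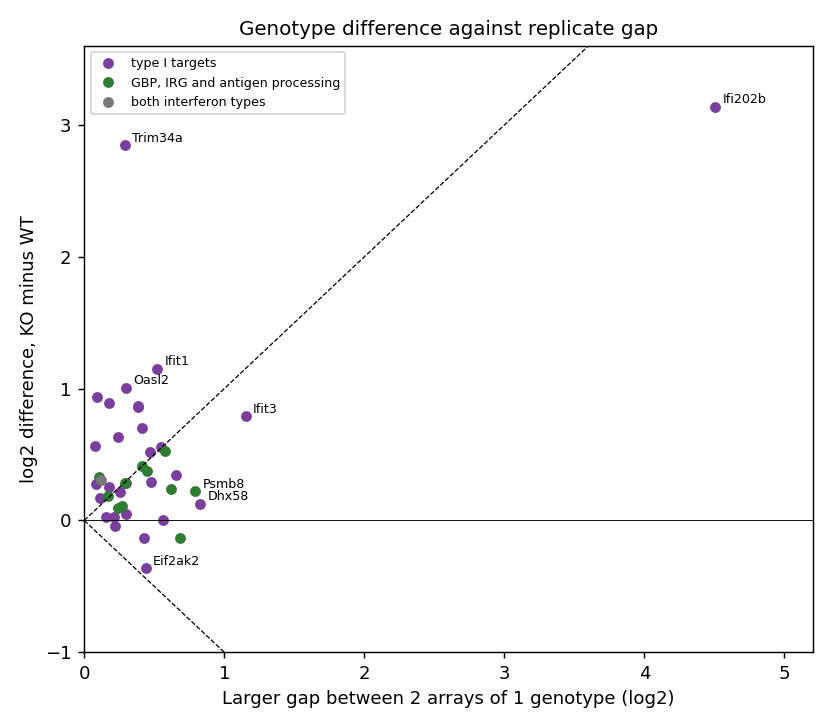
Log2 difference of KO minus WT for each of the 41 tested members (vertical axis) against the larger of its gaps between the 2 arrays of 1 genotype (horizontal axis), coloured by class; on the dashed lines difference and gap are equal. Above the upper line lie the 18 members whose difference was larger than both gaps, led by Trim34a, while Ifi202b lies far to the right with a gap of 4.51.

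Trim34a stood apart from the other members. Its signal was 45.02 and 58.6 in WT against 520.4 and 423 in KO, with means of 51.8 ± 9.63 and 472 ± 68.7 (SD, n = 2 each). The KO mean was 9.10 times the WT mean, and the log2 difference was 2.85 (SE 0.22, adjusted p = 0.00594). Both WT signals were below the dim limit, so it had to differ in order to be tested, and how far the WT signal exceeded background was not measured. It was called in all 9 alternative settings in which it was tested, with differences of 2.21 to 3.43. In 4 settings it was not tested, among them those without KO replicate 1 and without KO replicate 2. A second, dimmer Trim34a probe set read 98.8 and 103 against 121 and 77.6, with overlapping arrays and a difference of -0.04.

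Some other TRIM genes on mouse chromosome 7 shared part of this pattern. With all other genes left out, the GRCm38.p6 order was Trim21, Trim68, Trim6, Trim34a, Trim5, Trim12a, Trim34b, Trim12c, Trim30b, Trim30c, Trim30a and Trim30d. Which other genes lie between these, and how far apart they are, was not examined. The TRIM genes include near-identical copies, so reads of a single gene are uncertain and cross-hybridisation was not tested. Trim30a, a regulator of Toll-like receptor signalling, read 333 and 315 against 622 and 464, a 1.67-fold ratio with both KO arrays higher (log2 difference 0.70, SE 0.19, adjusted p = 0.112). Its second probe set was alike, at 213 and 250.04 against 458 and 405 (0.86, adjusted p = 0.0643).

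Of the 10 further TRIM genes listed, 7 had a probe set and 3 were tested. Limma called 0 of these 3, and 0 had an unadjusted p under 0.05, while 2 were positive and the median log2 difference was 0.28. Trim12c, a relative of the retroviral restriction factor TRIM5, read 512 and 481 against 681 and 541, and Trim21, a cytosolic antibody receptor, read 841 and 821 against 1031 and 996. Trim30d was too dim on average to be tested, at 9.97 and 27.2 on the WT arrays against 308 and 282 on the KO arrays. Trim12a gave 1.67 and 2.05 against 116 and 136, and Trim5 gave 16.3 and 7.4 against 45.8 and 45.1. In each of these 3 dim genes both KO arrays were above both WT arrays. Trim6, also too dim to be tested, overlapped at 55.4 and 80.0 against 79.6 and 90.8. The tested gene Trim68 overlapped as well, at 955 and 863 against 961 and 800 (log2 difference -0.05, adjusted p = 0.898). With no limit on dim probe sets Trim12a had an adjusted p of 0.0499 and Trim30d one of 0.0649.

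Signals near 0 on some arrays and far higher on others were also seen in genes whose level is known to differ between inbred mouse strains. From a list of 5 such genes limma called 1. The agouti gene a, a coat colour gene, rose from 44.4 and 34.2 in WT to 295 and 447 in KO (log2 difference 2.79, SE 0.27, adjusted p = 0.0134). Both WT signals were below the dim limit, so it entered the test through the KO arrays. Its adjusted p was 0.0538 without WT replicate 2 and 0.0654 with no filter on dim probe sets. H2-Ea, an MHC class II gene that some strains do not express, read 3391 on WT replicate 1, 62.5 on WT replicate 2, and 33.8 and 26.0 on the KO arrays. Its log2 difference of -3.50 had an adjusted p of 0.262. WT replicate 1 alone was high: without WT replicate 2 the difference was -6.22 with an adjusted p of 0.00312 against that single array, and without WT replicate 1 the gene was too dim to be tested. WT replicate 1 thus differed from WT replicate 2 both in H2-Ea and in Ifi202b. Alad, Glo1 and Nnt differed by 0.50, -0.31 and 0.07 on the log2 scale, and none was called. The part of strain background in the differences of Trim34a, Ifi202b and their neighbours was not tested, and the labels name no strain.

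**Figure D3:**
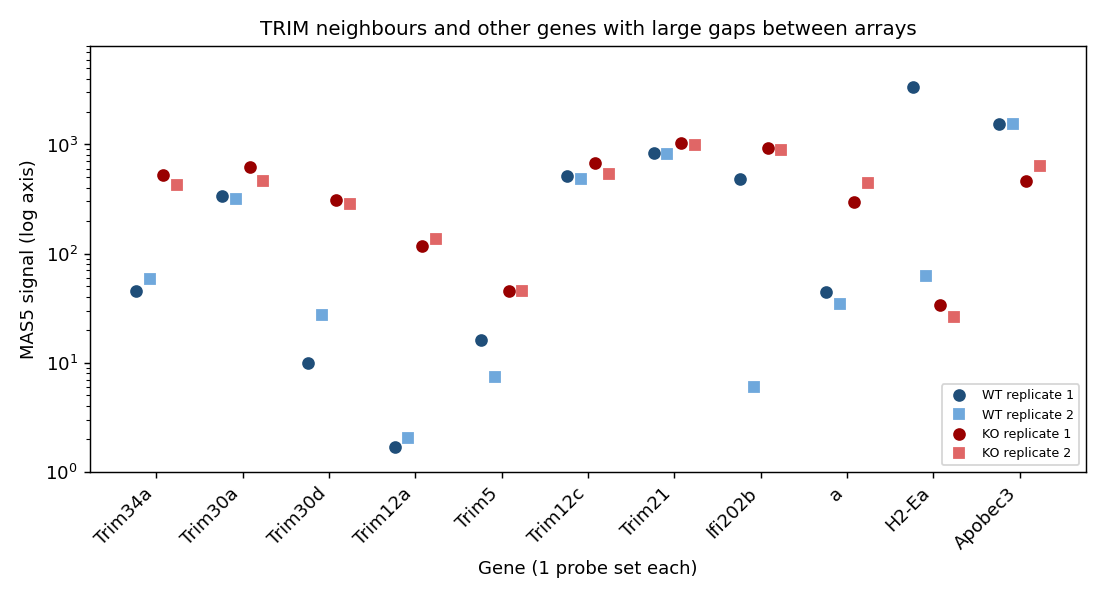
MAS5 signal on a logarithmic axis for Trim34a, other listed TRIM genes, Ifi202b, the agouti gene a, H2-Ea and Apobec3. There is 1 symbol per array, with circles for replicate 1 and squares for replicate 2, blue for WT and red for KO. Trim34a and Trim30d stand below 100 on both WT arrays and above 200 on both KO arrays, whereas Ifi202b and H2-Ea separate WT replicate 1 from WT replicate 2.

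The 3 PARP-group genes take part in ADP-ribosylation and ubiquitin tagging. They were nearly equal between genotypes. Parp14 read 944 and 786 in WT against 1020.1 and 989 in KO, a log2 difference of 0.22 (adjusted p = 0.492). Parp9 read 1552 and 1568 against 1636 and 1404, and its binding partner Dtx3l read 1023 and 1142 against 1113 and 1088, with overlapping arrays for both genes.

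The GBP and IRG proteins are GTPases that attack the vacuoles of intracellular microbes. None of the 5 tested genes passed the threshold, and none had an unadjusted p under 0.05. Their median log2 difference was 0.38. Gbp2 read 1133 and 920.1 in WT against 1557 and 1139 in KO (log2 difference 0.38, adjusted p = 0.347). Gbp3 read 429 and 373 against 715 and 474 (0.52, SE 0.22, adjusted p = 0.263), and Igtp read 1164 and 942 against 1615 and 1208 (0.41, adjusted p = 0.300). In these 3 genes both KO arrays were above both WT arrays, and KO replicate 1 gave most of the distance. Iigp1 read 1308 and 1247 against 1482 and 916, and Irgm1, which regulates the other IRG proteins, 420.4 and 370.2 against 460.3 and 387, so both overlapped. KO replicate 1 was above KO replicate 2 in 5 of these 5 genes, against 44.8% of all tested genes.

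The antigen processing genes supply peptides to MHC class I. Psmb8, Psmb9 and Psmb10 encode the inducible catalytic subunits of the immunoproteasome, Tap1 and Tap2 the peptide transporter, and Tapbp the chaperone tapasin. None of the 6 passed the threshold, 1 had an unadjusted p under 0.05, and their median log2 difference was 0.23. Tapbp had the narrowest spread, with 4492 and 4410.1 in WT against 5819 and 5406 in KO. That was a 1.26-fold ratio (log2 difference 0.33, SE 0.12, adjusted p = 0.188). A second, dimmer Tapbp probe set was also higher on both KO arrays but differed less, at 2162 and 2142 against 2385 and 2206 (0.09, adjusted p = 0.745). Psmb10 read 1663 and 1353 against 1791 and 1869, and Tap1 read 775 and 735 against 810.0 and 915, and for both genes the KO arrays were the higher ones. Psmb8 spanned the widest range, at 2534 and 1457 against 1916 and 2629. Psmb9 and Tap2 overlapped as well, at 1575 and 1017 against 1434 and 1556 and at 1598 and 1325 against 1543 and 1598. WT replicate 1 was above WT replicate 2 in 6 of these 6 genes, so the lower WT array was the same one each time.

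Genes that act beside these members had median differences near 0. Of 14 constitutive proteasome subunits, limma called 0, and 0 had an unadjusted p under 0.05. Their median log2 difference was -0.06 and 2 of 14 were positive, while Psmb5 and Psma4 differed most, by -0.17 and -0.13. Of 13 MHC class I genes and loading factors with a probe set, 11 were tested and limma called 0, with 3 higher and 0 lower at an unadjusted p under 0.05 and a median of 0.08. H2-K1 and H2-D1, the classical heavy chains, differed by 0.08 and 0.00, and B2m, the light chain, by -0.00. Nlrc5, the activator of MHC class I transcription, differed by 0.58 (adjusted p = 0.128), and H2-Q10, a non-classical class I gene, by 0.68 (adjusted p = 0.138).

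The type I targets held more of the large differences than the GBP, IRG and antigen processing genes, but the medians of these classes were close. The median log2 difference was 0.34 over 29 tested type I targets and 0.24 over 11 tested genes of the other class. A log2 difference of 0.5 or more was seen in 14 of the 29 and in 1 of the 11. Limma called 2 of the 29 and 0 of the 11, and at an unadjusted p under 0.05, 13 of the 29 and 1 of the 11 were higher. Both KO arrays were above both WT arrays in 18 of the 29 (62.1%) and in 6 of the 11 (54.5%), against the same 26.2% of all tested genes. The difference between the classes was not tested. The order of the medians turned with a filter at the 75th percentile, where the type I median was 0.20 and that of the other class 0.24. Single arrays moved both medians. The type I median was 0.54 without WT replicate 1, and the other class's median was 0.43 without WT replicate 1 and 0.14 without WT replicate 2.

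Each class had an array that stood out. For the type I targets KO replicate 1 was above KO replicate 2 in 25 of 29 (86.2%), against 44.8% of all tested genes. Measured from the WT mean, the type I median was 0.53 on KO replicate 1 and 0.28 on KO replicate 2. For GBP, IRG and antigen processing genes WT replicate 1 was above WT replicate 2 in 11 of 11, against 49.9% of all tested genes. KO replicate 1 was also the KO array with more Stat5a and Stat5b signal and with the lower epithelial marker sum, 40977 against 62434. The part of either in the type I signals was not tested.

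**Figure D4:**
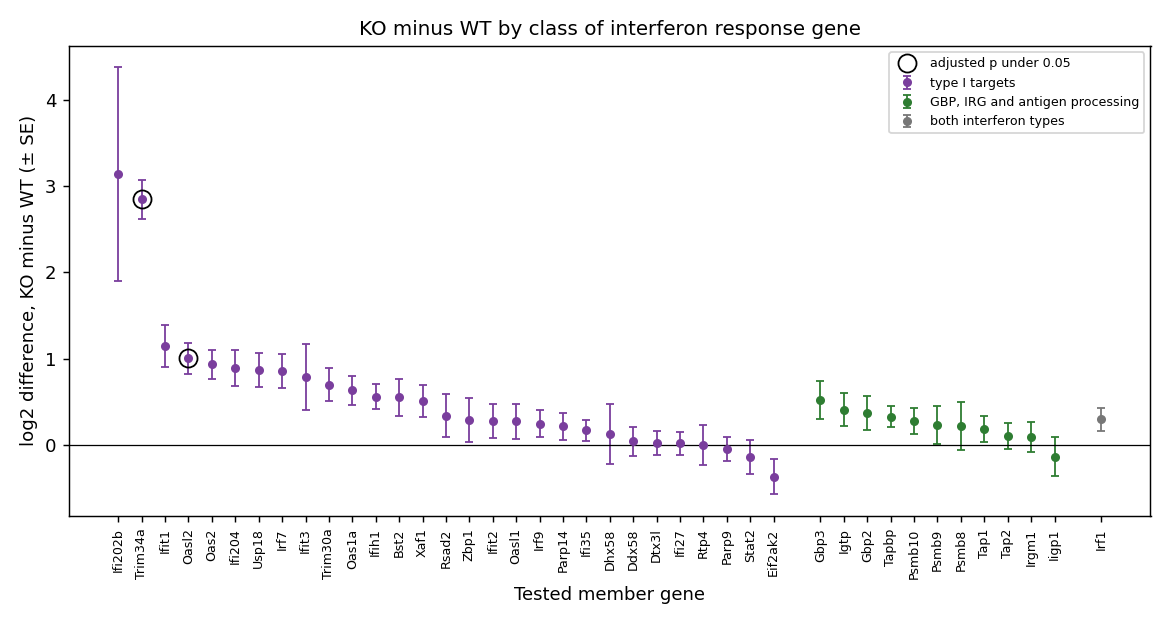
Log2 difference of KO minus WT for each tested member, sorted within its class, with bars for the standard error of the limma fit and open black circles around the 2 genes with an adjusted p under 0.05 (Trim34a and Oasl2). The type I targets fall from 3.14 to -0.36, whereas all but 1 of the GBP, IRG and antigen processing genes lie below 0.5.

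A further list held 42 interferon-induced genes outside the members. Of 34 with a probe set 29 were tested, 23 were positive and the median log2 difference was 0.26. Both KO arrays were above both WT arrays in 13 and below in 4, beside the 26.2% and 27.5% of all tested genes given above. Limma called 0 higher and 1 lower, with 7 higher and 2 lower at an unadjusted p under 0.05. Apobec3, a cytidine deaminase that restricts retroviruses, fell from 1555 and 1556 in WT to 461 and 631 in KO (log2 difference -1.50, SE 0.18, adjusted p = 0.0234). Without WT replicate 1 or WT replicate 2 its adjusted p was 0.0664 and 0.107, with the difference still -1.50. It was 0.0845 with no filter and 0.387 with epithelial centring, where the difference was -0.92. Slfn5 was higher on both KO arrays, at 811 and 711 against 216 and 375 (1.37, adjusted p = 0.0543). The chemokine gene Ccl5 was lower on both, at 92.9 and 92.6 against 265 and 203 (-1.19, adjusted p = 0.0524). Cxcl10, a chemokine gene among the members, was too dim to be tested and overlapped, at 60.9 and 76.9 against 91.4 and 66.9.

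The tissue was measured whole, so more cells of a type and more RNA per cell cannot be told apart. Epithelial markers were present on all arrays, with a summed signal of 59727 and 63301 in WT against 40977 and 62434 in KO, lowest on KO replicate 1. Of 21 tested, 16 were negative, and the median log2 difference was -0.40. Both KO arrays were below both WT arrays for 12 and above for 3, beside 27.5% and 26.2% of all tested genes. Limma called 1 lower and 1 higher, with 8 lower and 2 higher at an unadjusted p under 0.05. Macrophage markers, of which 12 of 13 were tested, summed to 39710 and 35241 against 45227 and 45448. Of the 12, 6 were higher on both KO arrays, beside 26.2% of all tested genes. Limma called 0 of them, with 6 higher and 1 lower at an unadjusted p under 0.05. General leukocyte markers went the other way, from 8994 and 8899 to 7467 and 5827. Of these, 4 of 6 were lower on both KO arrays, beside 27.5% of all tested genes. B cell markers (509 and 1066 against 395 and 320), T cell markers (697 and 884 against 430.3 and 690.0) and NK cell markers (585 and 485 against 430.2 and 307) were dim sums, and 1 of their 22 probe sets was tested. Markers of plasmacytoid dendritic cells, the main producers of interferon alpha, summed to 4954 and 4832 against 5715 and 5443. Of 4 tested, 2 were positive and 2 negative, and the median log2 difference was 0.26. The 2 that were higher on both KO arrays, Irf7 and Bst2, are themselves members of the interferon list. Siglech, another of these markers, read 164 and 172 against 174 and 114. Skeletal muscle markers summed to 1568 and 576 against 10340 and 6247. Limma called 5 of 10 tested genes higher, beside 1.21% of all tested genes, and 9 were higher at an unadjusted p under 0.05. Both KO arrays were above both WT arrays for 10 of 10, beside 26.2% of all tested genes, and the median log2 difference was 2.68. Endothelial, adipocyte and fibroblast markers had median log2 differences of 0.13, 0.15 and 0.07, and basal markers one of -0.59. The part of these cell types in the differences of the interferon response genes was not tested.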

How the data were processed

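The authors deposited linear intensities per probe set, computed with MAS5 per the submitters' processing notes, with version and settings not given in the sources used here. Genotype was taken from the labels, and replicate numbers follow the order of deposit and pair nothing. Per the labels' protocols, TRIzol was used for extraction and biotin as the label. Of 45037 probe sets other than controls, 34945 had 1 symbol, 932 several and 9160 none. Detection calls were not used here, so whether dim probe sets exceed background is unknown. Precision is limited by having 4 arrays.

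Signals were transformed as log2(signal + 16), which understates changes of dim genes. The 22519 probe sets with a mean log2 value at or above the median of 7.15 (a signal of 126) were tested by limma 3.58.1 in R 4.3.3 (lmFit, eBayes with trend), with Benjamini-Hochberg adjustment over all of them and a threshold of 0.05. The script was tested on simulated data. The spread behind each p-value is that between these 4 samples only. The smallest two-sided p of an exact permutation test is 0.333 with 2 arrays per group, so none was run.

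Every member with a probe set is named. From each other pathway list, genes past the threshold are named, up to 6, or otherwise up to 2 with the largest difference; marker lists are given as sums and medians. Genes named beyond this rule (receptor chains and ligands, Slfn5, Ccl5, further TRIM genes, classical MHC genes, Alad, Glo1, Nnt, H2-Ea and Siglech) were chosen after their values were seen. The members, lists and tests were chosen with earlier results of these data known, so they are no independent support. Promoters came from the RefSeq table of GRCm38.p6, which held 33 of the 46 members. Alternatives were other pseudocounts, normalizations, filters, variance models and probe set rules, and leaving out each array.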

Additional observations from a re-analysis of the deposited data

How the results depend on the processing

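The count of 2 members called higher was 1 with no filter on dim probe sets, 0 with a filter at the 75th percentile and 1 with no trend in the variance. It was 3 with a pseudocount of 64, with quantile normalization, with arrays centred on their medians and with arrays centred on epithelial markers, and 0 to 3 when 1 array was left out. No member was called lower in any setting. Trim34a was not tested without KO replicate 1, without KO replicate 2 or with the 75th percentile filter. The counts in those settings leave it out. The type I median of 0.34 was 0.93 with epithelial centring, 0.20 with the 75th percentile filter, below the 0.24 of the other class, and 0.28 to 0.54 without 1 array. The median of GBP, IRG and antigen processing genes was 0.82 with epithelial centring and 0.14 to 0.43 without 1 array. Epithelial centring moved the median of all genes from -0.01 to 0.57, so these medians rose with it. There limma took every variance from the trend, so a gene's own gap between arrays, such as that of Ifi202b, did not enter its p. For the count of 25 members with both KO arrays above both WT arrays, alternatives were added after the data were seen. It was 12 of 22 with the 75th percentile filter, beside 27.8% of all genes, and 34 with epithelial centring, beside 63.8%. With the mean of all probe sets of a gene it was 20 of 35, beside 24.4%.

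Some log2 differences changed sign. Epithelial centring gave 0.54 for Parp9, 0.45 for Stat2, 0.22 for Eif2ak2 and 0.45 for Iigp1, and median centring gave 0.041 for Parp9. A pseudocount of 64 gave -3.84e-04 for Rtp4. The mean of all probe sets gave -0.028 for Ddx58, -0.21 for Xaf1 and -0.083 for Dtx3l. Leaving out 1 array in turn gave values of both signs for Ddx58 (-0.10 to 0.19), Stat2 (-0.35 to 0.081), Rtp4 (-0.28 to 0.28), Ifi27 (-0.085 to 0.13), Parp9 (-0.15 to 0.069), Dtx3l (-0.052 to 0.10), Iigp1 (-0.47 to 0.21), Irgm1 (-0.026 to 0.21), Psmb8 (-0.17 to 0.62), Psmb9 (-0.075 to 0.55), Tap2 (-0.025 to 0.24) and Dhx58 (-0.17 to 0.54). The cause of these changes was not tested, beyond what each setting adds or leaves out. No paired analysis was possible because the labels give no replicate numbers.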
